A study of Mus musculus with 6 samples.

Results

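Respiratory complex I, the NADH:ubiquinone oxidoreductase of the inner mitochondrial membrane, takes electrons from NADH and passes them along a chain of iron-sulfur clusters to ubiquinone while pumping protons out of the matrix. In brown adipocytes this proton gradient is what UCP1, the uncoupling protein, dissipates as heat. The genes described here are the rows whose symbol begins with Nduf followed by the letter of a subunit series (a with a digit, ab1, b, c, s or v), with the Ndufaf assembly factors left out. The rule took 41 of the 13283 rows. The 40 rows described here all passed the filter on low values (at least 10 in 3 libraries) and were tested. Of these, 36 code for subunits of complex I proper and 4 are relatives, namely Ndufa4, Ndufa4l2, Ndufb4c and Ndufs5-ps. The subunits that the mitochondrial genome encodes, mt-Nd1 to mt-Nd6 and mt-Nd4l, were not analysed here.

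RNA-seq was performed on 6 libraries of the immortalized mouse BAT cell line, a brown preadipocyte line that in this experiment stably expressed Cas9. The 3 control libraries, labelled WT and called Scr, came from cells transduced with a scrambled single guide RNA. The 3 MICT1 KO libraries came from cells in which the gene of MICT1, a microprotein of brown fat, was cut with CRISPR. All cells were put through brown adipocyte differentiation and received 10 µM forskolin, which activates adenylyl cyclase, for 6 h on day 6. The knockouts were pools of transduced cells and not clones. The study describes independent pools and different guides, and the labels do not tell which pool each library came from. The study calls its replicates biological, but all come from a single line, so p-values measure the spread between these cultures. The level of MICT1 itself was not analysed here.

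The 6 libraries held an estimated 15445742 to 17925698 reads on the listed genes. The deposited value of a gene is a normalized signal, close to a read number divided by a size factor of the library that lay between 0.949 and 1.08. Fold changes are on the scale of log2(value + 1), and a gene was called when limma-trend gave a Benjamini-Hochberg adjusted p under 0.05 over the 12507 genes tested. A library taken as differentiated brown fat cells should hold adipocyte mRNAs, and 12 of 13 adipocyte markers were lower in MICT1 KO cells. Their summed level, as CPM (value scaled to the total of the library), was 13828 to 15818 in Scr and 1942 to 2356 in MICT1 KO, a fall of 85.9% in the mean. The lowest were the adipokine gene Adipoq (log2 fold change -6.66) and the lipid droplet genes Plin1 (-5.93) and Cidec (-5.51). Lpl (-2.44) and Pparg (-2.31) were the mildest falls, and Fasn, the fatty acid synthase, was higher (0.30). The 4 markers of dividing cells were all higher, with a sum of 1113 to 1235 CPM in Scr and 1844 to 2116 CPM in MICT1 KO. None of the 3 macrophage markers analysed was called, with a sum of 6.33 to 9.86 CPM over all 6 libraries, nor were the 2 skeletal muscle markers, at 3.37 to 5.74 CPM. The 1 endothelial marker analysed, Cdh5, was higher (log2 fold change 1.71, limma adjusted p = 0.00275) at a low level, 0.368 to 0.725 CPM in Scr and 1.59 to 2.03 CPM in MICT1 KO. Among the brown fat markers, Ucp1 was lower but was low in both groups, with a mean of 25.1 ± 4.96 for Scr and 4.10 ± 4.55 for MICT1 KO (SD, n = 3 each). Cox7a1, with a mean of 104 for Scr and 134 for MICT1 KO, had overlapping groups and was not called (log2 fold change 0.35, limma adjusted p = 0.141). Ppargc1a was below the filter, with a mean of 5.50 for Scr and 7.52 for MICT1 KO. Cidea, Dio2, Elovl3, Prdm16 and Cox8b were not analysed here. Of the progenitor markers, Dlk1 (log2 fold change -3.47) and Pdgfra (-0.19, with overlapping groups) were lower and Ly6a (1.39) was higher. Pi16, with a mean of 4.18 for Scr and 17.7 for MICT1 KO, and Cd34, with 7.95 and 5.15, were below the filter. In bulk RNA, fewer differentiated cells and less subunit mRNA per cell cannot be told apart, and the part of these shifts in the results below was not tested.

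More complex I rows were lower than higher in MICT1 KO cells, and by unequal amounts. Of the 40 rows, 23 were lower and 1 was higher, Ndufs5-ps, and 16 were not called. Over all genes tested, 28.3% were lower and 28.5% were higher by the same rule. The median log2 fold change of the 40 rows was -0.30, beside -0.0053 over all genes tested. In 27 rows all 3 MICT1 KO values lay below all 3 Scr values, against 31.2% of all genes. In 1 row they all lay above, against 30.9% of all genes. Falls of at least 1.5-fold were seen in 9 rows, where 11.5% of all genes tested were lower by that much. Of the 40 rows only Ndufb9 was called lower by more than 2-fold, beside 720 of the 12507 genes tested. Among the 36 subunits of complex I proper 21 were lower and none was higher. Their log2 fold change was negative in 32, beside 6320 of the 12507 genes tested.

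**Figure D1:**
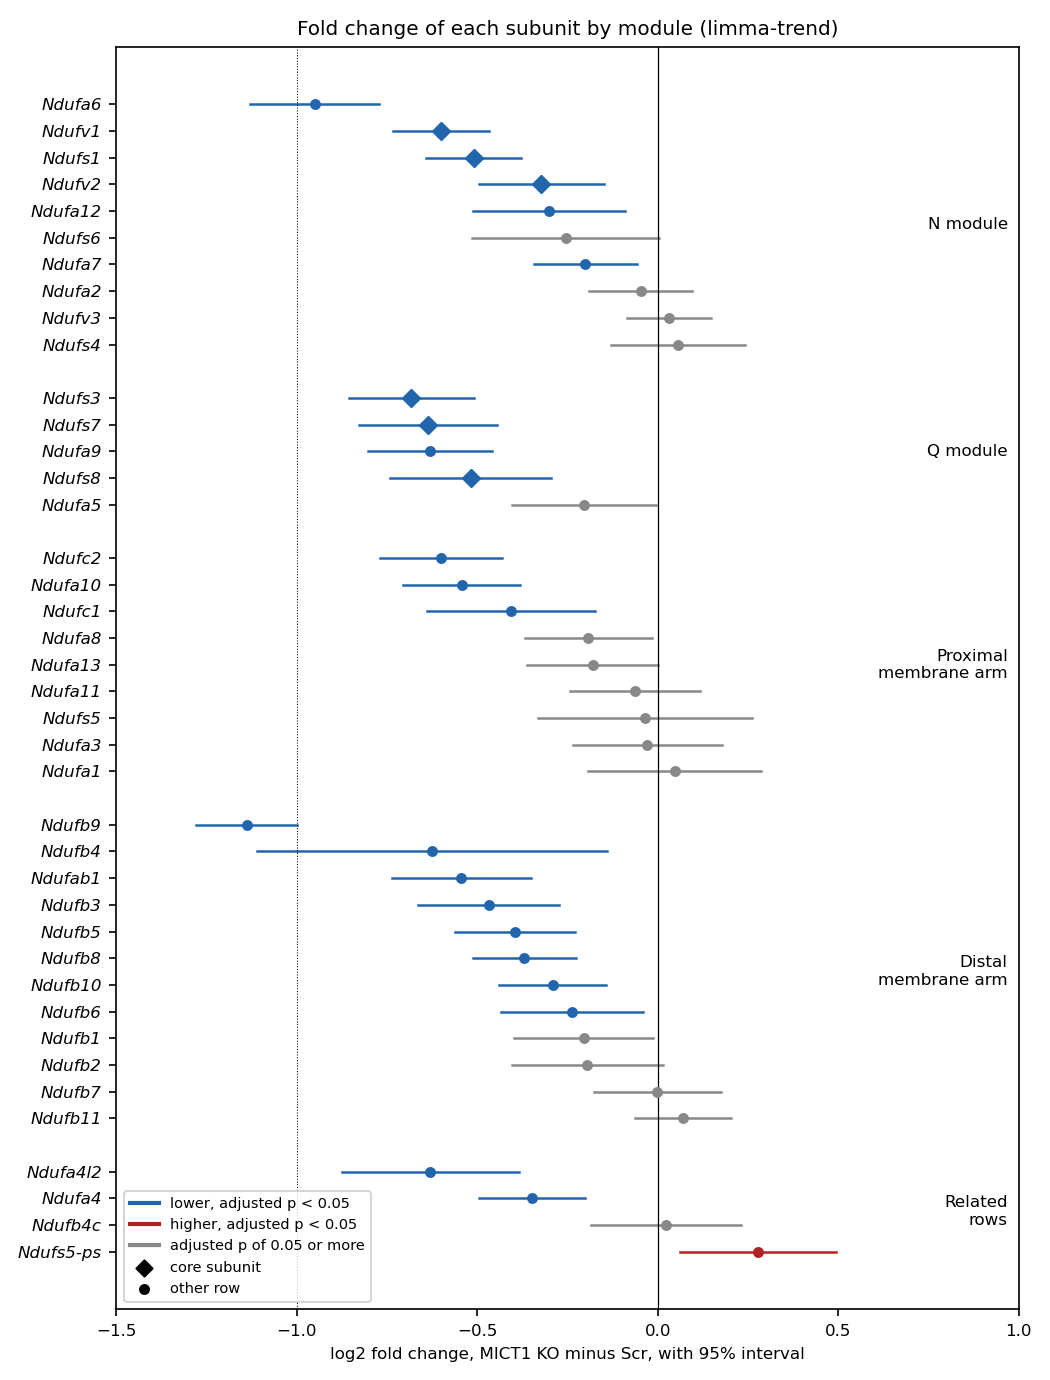
Log2 fold change of each of the 40 rows, MICT1 KO minus Scr, with its 95% interval from limma-trend (n = 3 libraries per group), grouped by module of the enzyme. Diamonds mark the 6 core subunits, which all lie left of 0, and the dotted line marks a 2-fold fall, which Ndufb9 alone passes.

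The summed level of the 36 subunits was lower in every MICT1 KO library. The sum was 2210, 2075 and 2242 CPM in Scr replicates 1, 2 and 3. In MICT1 KO replicates 1, 2 and 3 it was 1789, 1640 and 1742 CPM. The groups did not overlap, and the mean fell by 20.8%. An exact permutation test of such a sum between 3 and 3 libraries cannot give a p under 0.1. MICT1 KO replicate 1 was the closest to Scr and MICT1 KO replicate 2 the farthest. The median subunit differed from the Scr mean by -0.20, -0.40 and -0.34 on the log2 scale in the 3 MICT1 KO libraries in turn.

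**Figure D2:**
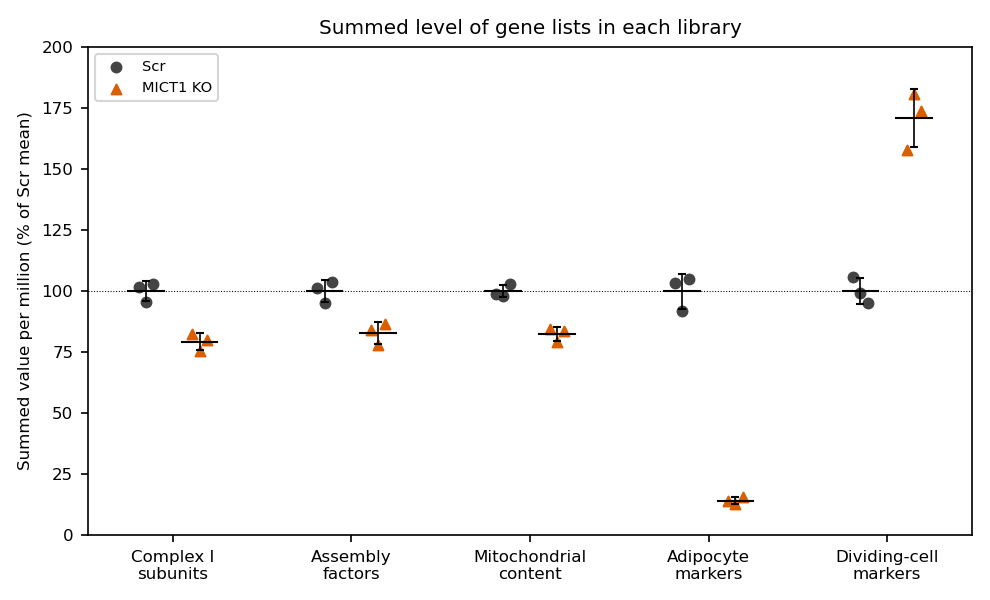
Summed CPM of 5 gene lists in each library, as a percentage of the Scr mean, with each group's mean (horizontal bar) and SD (error bar, n = 3). Complex I subunits lie between 75.4% and 82.2% in MICT1 KO, near the assembly factors and the mitochondrial content genes, while adipocyte markers lie between 12.9% and 15.6% and dividing-cell markers between 158% and 181%.

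Per kilobase of exon, the 36 subunits spanned a wide range of levels. In Scr cells the lowest was Ndufb4 at 2.86 ± 0.524 RPKM (SD, n = 3) and the highest was Ndufb9 at 122 ± 8.58 RPKM (SD, n = 3). The level of Ndufb4 is uncertain, because all 390 bases of its copy Ndufb4c, at 83.1 RPKM in Scr, are identical to its transcript. The next lowest subunit was Ndufb2 at 5.78 ± 0.642 RPKM (SD, n = 3). Ndufa2 at 120 ± 3.97 RPKM lay within the spread of Ndufb9. The median subunit was at 31.4 RPKM in Scr and 24.4 RPKM in MICT1 KO. The subunit with the highest mean level in Scr was thus the one with the deepest fall, to 55.5 ± 1.53 RPKM, whereas Ndufa2 was at 116 ± 1.54 RPKM. Exon lengths join all annotated transcripts of a gene, such as 6883 bases for Ndufab1 and 5628 for Ndufb2, and set this scale.

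**Figure D3:**
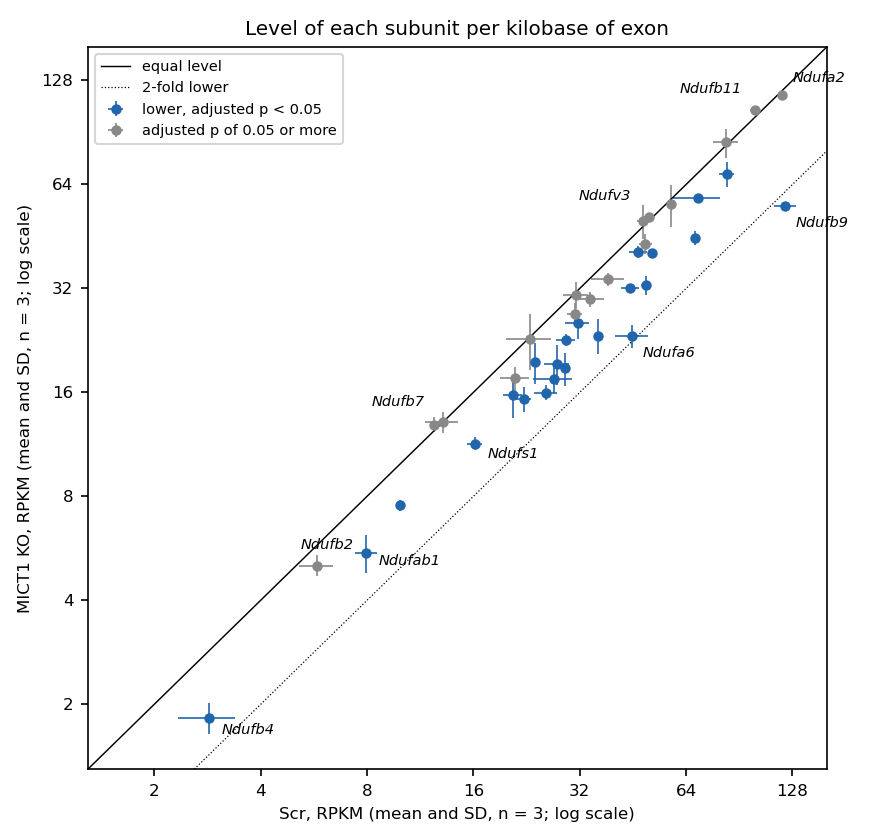
Mean level of each subunit in Scr (horizontal) and MICT1 KO (vertical), in RPKM on log axes, with SD (n = 3). Points on the solid line have equal levels; most points lie between it and the dotted line of a 2-fold fall, and Ndufb9 lies below the dotted line.

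Promoters of respiratory genes are known for sites of NRF1, the nuclear respiratory factor, a regulator of nuclear genes for mitochondrial proteins. A RefSeq window (GRCm38.p6, 250 bases before to 50 bases after a listed start of the gene) was found for 33 of the 36 subunits. Where a gene had more than 1 window, the first listed was used. The NRF1 letters, GCGCA and GCGC with any 1 base between them, searched on both strands, were present in 7 of the 33 windows (21.2%). They were present in 10.8% of the windows of 9995 tested genes and in 4.6% of all 32851 windows of that length. Among windows of subunits called lower, 2 of 19 held these letters, those of Ndufb4 and Ndufa6. Among windows of subunits not called, 5 of 14 did. Stretches around the match are shown for the subunits in which it lies before the start, to set the letters and their place beside the calls. Of these subunits only Ndufb4 was called lower. The Ndufb4 call is uncertain: it was lost in 4 of the 6 fits that left out a library, and the sum of Ndufb4 and its copy Ndufb4c differed by less than the spread between libraries. The capitals mark the NRF1 letters as they read on the gene's strand.
Ndufb4, chr16:37654369-37654415 (minus strand): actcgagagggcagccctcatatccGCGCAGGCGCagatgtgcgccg
Ndufs6, chr13:73328483-73328523 (minus strand): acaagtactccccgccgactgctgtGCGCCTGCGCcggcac
Ndufa8, chr2:36049339-36049393 (minus strand): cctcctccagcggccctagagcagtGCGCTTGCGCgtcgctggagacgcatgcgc
Ndufs5, chr4:123718250-123718309 (minus strand): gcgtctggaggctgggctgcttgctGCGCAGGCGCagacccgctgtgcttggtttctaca
Ndufa5, chr6:24527682-24527741 (minus strand): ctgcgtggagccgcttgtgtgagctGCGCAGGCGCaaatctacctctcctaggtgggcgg
Ndufa11, chr17:56717677-56717736 (plus strand): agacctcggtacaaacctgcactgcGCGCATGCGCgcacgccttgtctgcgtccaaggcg

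The first base of the match lies 22 bases before the start in Ndufb4, 16 in Ndufs6, 30 in Ndufa8, 98 in Ndufs5, 190 in Ndufa5 and 60 in Ndufa11. Ndufa5 has 2 windows, and its distance is from the start of the first listed. That start is not the outermost one: the RefSeq gene reaches base 24527690, inside the printed stretch. The Ndufb4 window holds 2 further matches, which begin 79 and 191 bases before the start. In Ndufa6 the match lies after the start. Other letters were searched in the same windows and do not contain one another. The YY1 letters AANATGGCG were in 6 of the 33 windows (18.2%, beside 5.49% of tested genes) and the ETS letters CCGGAAG in 4 (12.1%, beside 18.6%). The ERR letters AAGGTCA were in 3 (9.09%, beside 2.91%), and TGACG, part of the cAMP response element, in 15 (45.5%, beside 32.6%). A match describes the letters of the window and is not a binding site.

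The core subunits have counterparts in the bacterial enzyme. Most of those that the nuclear genome encodes carry the flavin or iron-sulfur clusters or help to form the ubiquinone site. The 6 core subunits described here were all lower in MICT1 KO cells, with log2 fold changes from -0.68 to -0.32 and a median of -0.56. In all 6 the MICT1 KO values lay below all Scr values, against 31.2% of all genes tested. The 30 supernumerary subunits, which surround the core in mammals, were lower in 15 cases with a median of -0.22. Both shares stand beside 28.3% of all genes, and the difference between the core and the supernumerary subunits itself was not tested.

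The N module is the tip of the matrix arm, where NADH is oxidized. In it 6 of 10 subunits were lower (60%, beside 28.3% of all genes tested), none was higher, and the median log2 fold change was -0.28. Here and below, values are given for replicates 1, 2 and 3 in turn. Ndufv1 (chr19:4007384-4012806, GRCm38), which binds NADH and the flavin, measured 2162, 2082 and 2138 in Scr, against 1411, 1313 and 1490 in MICT1 KO. Every MICT1 KO library was far below the lowest Scr library, and limma-trend gave a log2 fold change of -0.60 (SE 0.0642, adjusted p = 8.2e-08). Ndufs1 (chr1:63143596-63176833), an iron-sulfur subunit that leads electrons away from the flavin, read 2178, 2047 and 2189 in Scr, against 1554, 1421 and 1528 in MICT1 KO. The groups were again apart, with a change of -0.51 (SE 0.0630, limma adjusted p = 6.48e-07). Ndufv2 (chr17:66078638-66101559), the partner of Ndufv1, was at 1132, 1024 and 1171 in Scr, against 984, 880 and 801 in MICT1 KO. The gap between the groups was small here, and the change of -0.32 (SE 0.0831, limma adjusted p = 0.00241) was the mildest among the core subunits.

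Ndufa6 had the deepest fall of the N module. It is a protein of the LYR family that sits on the matrix arm and holds the mitochondrial acyl carrier protein, Ndufab1. Ndufa6 (chr15:82350140-82354322) measured 1216, 1281 and 1491 in Scr, against 736, 626 and 697 in MICT1 KO. The highest MICT1 KO library was far under the lowest Scr library, a 1.93-fold fall (log2 fold change -0.95, 95% interval -1.13 to -0.77, limma adjusted p = 6.51e-09). Ndufa12 fell by 0.30 and Ndufa7 by 0.20 on the log2 scale, both with the groups apart. Without MICT1 KO replicate 2 or 3 the adjusted p of Ndufa12 was 0.0669 or 0.0723. Ndufa7 lost its call without Scr replicate 3 (0.0879) or MICT1 KO replicate 2 (0.0693). Ndufs6, a zinc-binding subunit added late in assembly, had a log2 fold change of -0.26 and an adjusted p of 0.0864 by limma, with the groups apart.

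Other subunits of the same module stayed near their Scr level. Ndufs4, whose loss is a known cause of Leigh syndrome, measured 547, 567 and 532 in Scr, against 603, 568 and 542 in MICT1 KO. Ndufv3, a small subunit at the NADH site, measured 2628, 2571 and 2682 in Scr, against 2766, 2592 and 2698 in MICT1 KO. Ndufa2, a thioredoxin-fold subunit, measured 1143, 1133 and 1090 in Scr, against 1110, 1076 and 1071 in MICT1 KO. In each of these 3 the groups overlapped. The 95% intervals of the log2 fold change were -0.13 to 0.24 for Ndufs4, -0.09 to 0.15 for Ndufv3 and -0.19 to 0.09 for Ndufa2, so falls of the size seen in Ndufv1 lie outside them.

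The Q module joins the N module to the membrane and reduces ubiquinone. It had the lowest median of the 4 modules, -0.63, with 4 of 5 subunits lower (80%, beside 28.3% of all genes tested). The MICT1 KO values lay below all Scr values in all 5, against 31.2% of all genes tested. Ndufs3 (chr2:90894634-90904827), a core subunit that joins early in assembly, measured 954, 851 and 935 in Scr, against 574, 594 and 537 in MICT1 KO. Its fall of 1.61-fold was the deepest of the core subunits (log2 fold change -0.68, SE 0.0830, limma adjusted p = 5.21e-07). Ndufs7 (chr10:80249121-80256794) carries the last iron-sulfur cluster before ubiquinone. It read 796, 803 and 850 in Scr, against 589, 471 and 519 in MICT1 KO. Replicate 1 was the highest MICT1 KO library but was still well below Scr, and the change was -0.64 (SE 0.0914, limma adjusted p = 4.91e-06).

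Ndufs8 (chr19:3908863-3912774), which holds the clusters between Ndufs1 and Ndufs7, was at 625, 551 and 573 in Scr, against 466, 355 and 404 in MICT1 KO. It spread more within groups, with a change of -0.52 (SE 0.107, limma adjusted p = 0.000313). Ndufa9 (chr6:126821721-126849136), a supernumerary subunit at the junction with the membrane, read 1211, 1258 and 1240 in Scr, against 891, 701 and 813 in MICT1 KO. Its change of -0.63 (SE 0.0828, limma adjusted p = 1.49e-06) was close to that of the core subunits around it. Ndufa5 was the 1 subunit of this module not called. It measured 563, 538 and 637 in Scr, against 536, 483 and 487 in MICT1 KO, apart by a narrow gap (log2 fold change -0.20, limma adjusted p = 0.0740, and 0.0454 without MICT1 KO replicate 1). Leaving out other single libraries raised the limma adjusted p of Ndufa5, to at most 0.292.

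The proximal membrane arm, next to the Q module, had 3 of 9 subunits lower (33.3%, near the 28.3% of all genes tested) and a median of -0.18. Differences between the modules were not tested. Ndufc2 (chr7:97400003-97407802), a membrane subunit, measured 827, 842 and 837 in Scr, against 560, 523 and 571 in MICT1 KO. Scr libraries differed little from each other and MICT1 KO lay far below (log2 fold change -0.60, SE 0.0812, limma adjusted p = 2.29e-06). Ndufa10, which has the fold of a nucleoside kinase, fell by 0.54 and Ndufc1, another small membrane subunit, by 0.41 on the log2 scale, both with the groups apart. Ndufa8 and Ndufa13, the latter also known as GRIM-19, had changes of -0.19 and -0.18 with the groups apart but adjusted p-values of 0.0590 and 0.0836 by limma. Without MICT1 KO replicate 3 the value for Ndufa8 was 0.0458, and without Scr replicate 2 that for Ndufa13 was 0.0494. Leaving out other single libraries raised these values, to at most 0.198 for Ndufa8 and 0.374 for Ndufa13.

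The other 4 subunits of the proximal arm overlapped between groups and were not called. Ndufa11, related to the Tim17 family of import proteins, measured 1051, 1048 and 1010 in Scr, against 1163, 901 and 932 in MICT1 KO. Its MICT1 KO replicate 1 was above every Scr library and the others were below. Ndufa3, a small membrane subunit, read 523, 483 and 559 in Scr, against 542, 456 and 538 in MICT1 KO. Ndufa1, another small membrane subunit, read 338, 330 and 324 in Scr, against 311, 333 and 385 in MICT1 KO. For both, values of the 2 groups were interleaved. Ndufs5, a subunit on the intermembrane space side, read 288, 311 and 381 in Scr, against 365, 252 and 345 in MICT1 KO. The log2 fold changes of these 4 ran from -0.06 (Ndufa11) to 0.05 (Ndufa1), with the widest 95% interval for Ndufs5, -0.33 to 0.26.

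The distal membrane arm is the far end of the proton-pumping part. It had 8 of 12 subunits lower (66.7%, beside 28.3% of all genes tested) and a median of -0.33. Ndufb9 (chr15:58933756-58939488) is, like Ndufa6, a LYR protein that holds Ndufab1, here at the distal arm. It measured 2074, 1927 and 2179 in Scr, against 931, 911 and 959 in MICT1 KO. The MICT1 KO libraries lay close together and their mean fell by 54.7%, a 2.20-fold fall (log2 fold change -1.14, 95% interval -1.28 to -0.999, limma adjusted p = 7.28e-12). An annotated gene on the same strand, Gm49356, shares 19.5% of its exon bases, and reads of the 2 genes cannot be told apart there. Ndufab1 (chr7:122085403-122101886), which also serves mitochondrial fatty acid synthesis as its acyl carrier, read 890, 842 and 964 in Scr, against 563, 586 and 705 in MICT1 KO. The acyl carrier and both LYR subunits of complex I were lower, Ndufab1 by 0.54 on the log2 scale (SE 0.0919, limma adjusted p = 3.68e-05).

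Ndufb3, Ndufb5, Ndufb8 and Ndufb10, structural subunits of this arm, were lower with the groups apart, by 0.47, 0.40, 0.37 and 0.29 on the log2 scale. Ndufb5 varied least in Scr, at 811 ± 4.86 (SD, n = 3), and was at 616 ± 25.2 (SD, n = 3) in MICT1 KO. Ndufb6 was called lower although its groups overlapped. It read 836, 637 and 763 in Scr, against 624, 644 and 616 in MICT1 KO, so that Scr replicate 2 lay below MICT1 KO replicate 2. Its call (log2 fold change -0.24, limma adjusted p = 0.0375) was lost without Scr replicate 1, where the change was -0.15 and the adjusted p 0.226. It was also lost without Scr replicate 3 (0.0978), MICT1 KO replicate 1 (0.0630) or MICT1 KO replicate 3 (0.0894). Exons of Smim27 on the opposite strand cover 39.0% of the exon bases of Ndufb6, and the sources used here do not give whether counting used the strand.

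In the same arm 4 subunits were not called. Ndufb11, encoded on the X chromosome like Ndufa1, measured 1413, 1521 and 1527 in Scr, against 1597, 1516 and 1568 in MICT1 KO. Ndufb7, an intermembrane space subunit, read 917, 904 and 1090 in Scr, against 1039, 892 and 972 in MICT1 KO. Values of the groups were mixed in both, and the 95% intervals of the log2 fold change were -0.06 to 0.20 for Ndufb11 and -0.18 to 0.18 for Ndufb7. Ndufb2 read 570, 473 and 553 in Scr, against 431, 490 and 470 in MICT1 KO. It overlapped only through Scr replicate 2, the lowest Scr library, and without that library its change was -0.28 with an adjusted p of 0.0420 by limma, beside -0.20 and 0.105 with all 6. Ndufb1 had a change of -0.20 and an adjusted p of 0.0653 with the groups apart, and 0.0493 without MICT1 KO replicate 2. Leaving out other single libraries raised the limma adjusted p, to at most 0.311 for Ndufb2 and 0.266 for Ndufb1.

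**Figure D4:**
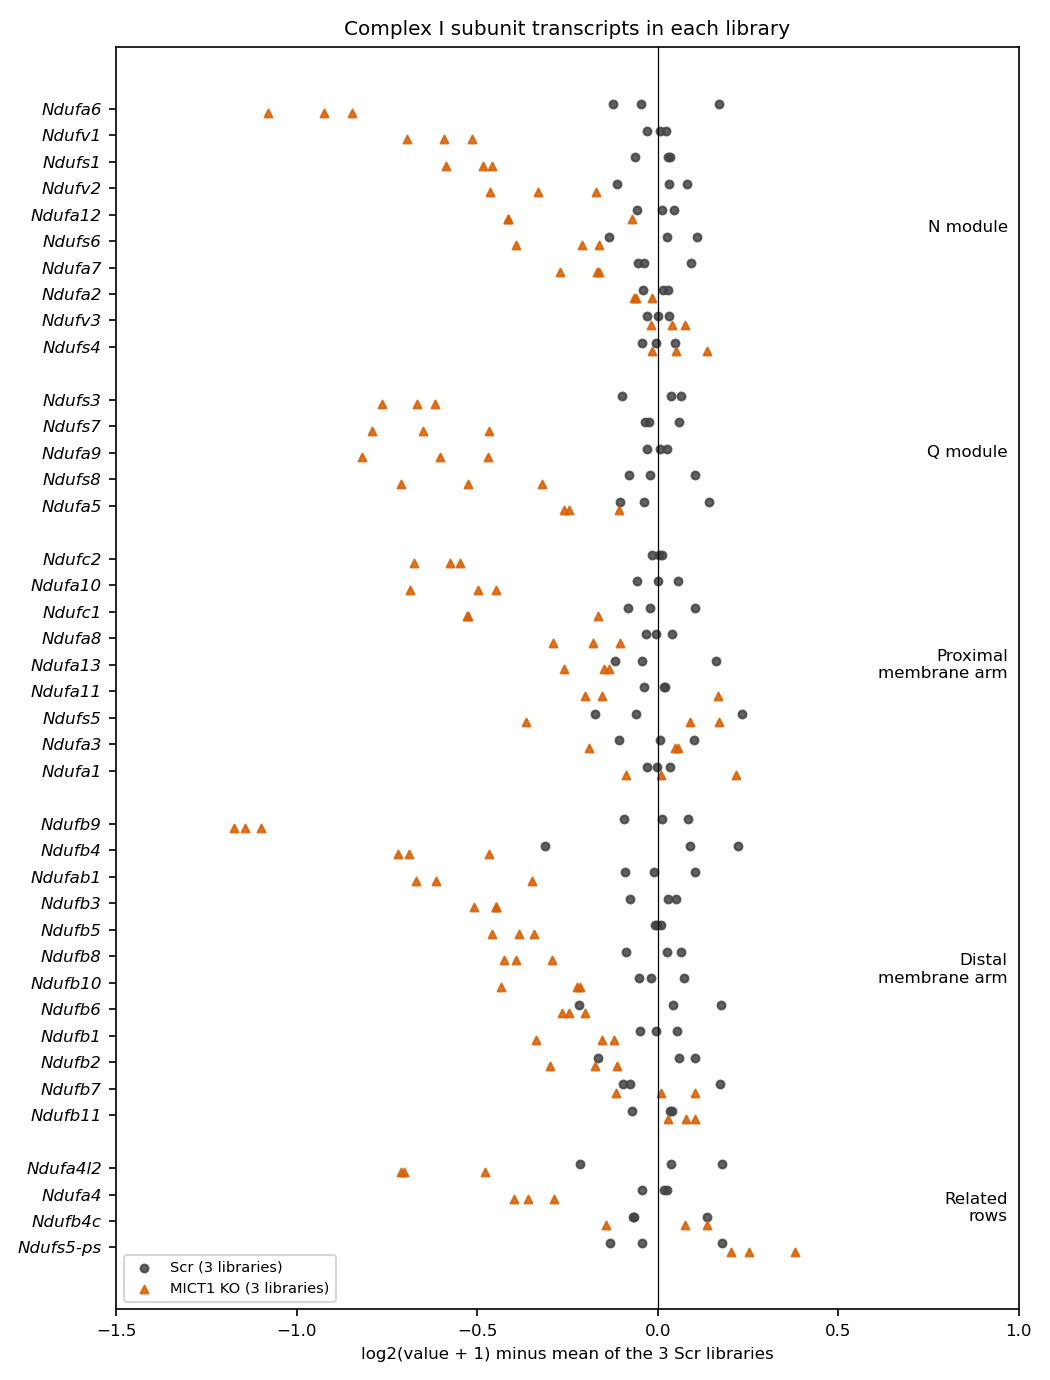
Each of the 40 rows in each library, as log2(value + 1) minus the mean of the 3 Scr libraries, for Scr (circles) and MICT1 KO (triangles), grouped by module. Triangles lie left of all circles in 27 rows, and in the Q module in all 5, beside 31.2% of all genes tested.

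The values of Ndufb4 and Ndufs5 are less certain than those of the other subunits. In 35 of the 40 rows the value divided by that of 1 read was a whole number, within 0.05, in all 6 libraries. In Ndufb4, Ndufb4c, Ndufs5, Ndufs5-ps and Ndufa13 it was whole in none. The estimates of Ndufb4 and Ndufb4c added to whole reads in all 6 libraries, and so did those of Ndufs5 and Ndufs5-ps. In Scr replicate 1, for example, they were 95.386 and 510.614 reads for the first pair and 290.749 and 413.252 for the second. The calls of these rows thus rest on parts of reads, and the cause was not tested. Exons of Tssk6 on the opposite strand also cover 375 of the 1251 exon bases of Ndufa13, and exons of other genes cover 11.5% to 12.9% in Ndufa2, Ndufb1, Ndufb5 and Ndufb11. Ndufb4c (chr15:73809507-73809896) is an intronless copy whose 390 annotated bases are all identical to the Ndufb4 transcript. Ndufb4, a subunit of the distal arm, measured 94.3, 104 and 71.1 in Scr, against 54.5, 53.4 and 63.8 in MICT1 KO. The groups were apart by a small gap, with a log2 fold change of -0.63 (SE 0.233, limma adjusted p = 0.0271). Without Scr replicate 2 the change was -0.51 and the adjusted p 0.122, and the call was also lost without Scr replicate 1 (0.0813), MICT1 KO replicate 1 (0.0587) or MICT1 KO replicate 2 (0.0675).

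Ndufb4c, in contrast, measured 505, 504 and 581 in Scr, against 581, 479 and 557 in MICT1 KO, with the groups mixed (log2 fold change 0.02, limma adjusted p = 0.866). The 2 rows together summed to 620 ± 28.4 for Scr and 596 ± 56.1 for MICT1 KO (SD, n = 3 each), a difference smaller than the spread. Ndufs5-ps, named as a pseudogene of Ndufs5 and the 1 row called higher, read 409, 477 and 385 in Scr, against 485, 549 and 503 in MICT1 KO. Every MICT1 KO library was above every Scr library, by 1.21-fold (log2 fold change 0.28, SE 0.104, limma adjusted p = 0.0276). That call was lost when Scr replicate 1, Scr replicate 3 or MICT1 KO replicate 2 was left out, with adjusted p-values of 0.0788, 0.118 and 0.108. Ndufs5 and Ndufs5-ps summed to 750 ± 47.9 for Scr and 833 ± 28.0 for MICT1 KO (SD, n = 3 each).

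Ndufa4 and Ndufa4l2 carry the family's name but are not subunits of complex I proper. Ndufa4, now assigned to complex IV, measured 1126, 1174 and 1180 in Scr, against 950, 904 and 880 in MICT1 KO. All MICT1 KO libraries were lower, with a change of -0.35 (SE 0.0706, limma adjusted p = 0.000273). Ndufa4l2, a paralog known as a target of hypoxia-inducible factor, read 415, 495 and 545 in Scr, against 346, 296 and 294 in MICT1 KO. The groups were apart although Scr spread widely, with a change of -0.63 (SE 0.117, limma adjusted p = 0.000112).

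Assembly factors are needed to build complex I but leave the finished enzyme. Of 20 that were tested, 9 were lower (45%) and 2 were higher, with a median log2 fold change of -0.33 and a fall of 17.2% in their summed CPM. Over all genes tested, 28.3% were lower and 28.5% were higher, which also stands beside the lists below. Nubpl, which delivers iron-sulfur clusters, changed by -1.09 (limma adjusted p = 0.00034). Ecsit, part of the assembly complex for the membrane arm, changed by -0.78 and Tmem70, which also serves ATP synthase assembly, by -0.77. Lyrm2 and Tmem126a were higher by 0.55 and 0.41. The highest called factor after these, Ndufaf4, which assists the Q module, was lower by a change of -0.21.

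Partners of complex I in electron transport were described by the same counts. Of 45 nuclear subunits of complexes II to V, 31 were lower (68.9%, beside 28.3% of all genes tested) and 3 were higher, with a median of -0.28. The lowest were Cox7c (-1.25), Uqcrc2 (-0.90) and Uqcrfs1 (-0.73), and the 3 higher ones were the isoforms Cox6a2 (0.87) and Cox4i2 (0.77) and the ATP synthase inhibitor Atpif1 (0.53), all on the log2 scale. Of 13 genes of ubiquinone synthesis, 7 were lower (53.8%) and 2 were higher. Coq8a changed by -1.69, Coq8b by -0.90 and Coq9 by -0.79, while Coq2 (0.42) and Coq10b (0.20) were higher and Pdss1 (-0.43) was the mildest of the falls. Of 7 genes for other routes of electrons to ubiquinone, the electron-transfer flavoprotein genes Etfa and Etfb (-0.48 each), Etfdh (-0.43) and Dhodh (-0.28) were lower, and Prodh (0.92) and Gpd2 (0.25) were higher.

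Of 12 regulators of respiratory genes that were tested, 8 were lower (66.7%, beside 28.3% of all genes tested) and none was higher. The coactivator Ppargc1b changed by -4.17, Tfb1m by -0.90 and Tfb2m by -0.61, where Tfb1m and Tfb2m serve mitochondrial ribosomes and transcription. The mildest calls were Tfam (-0.28), Gabpb2 (-0.24) and Yy1 (-0.23). Nrf1, whose letters were searched above, had a change of -0.19 and an adjusted p of 0.0519 by limma and was not called, nor was Esrra at 0.08. Of 13 genes of general mitochondrial content, 10 were lower (76.9%) and 1 was higher. Citrate synthase Cs changed by -0.44, Hspd1 by -0.40 and Tomm20 by -0.39, and the porin Vdac1 was higher by 0.18, while Phb (-0.24) and Vdac3 (-0.21) were the mildest falls. Their summed level fell by 17.6%, beside 20.8% for the complex I subunits, and the difference between these falls was not tested.

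**Figure D5:**
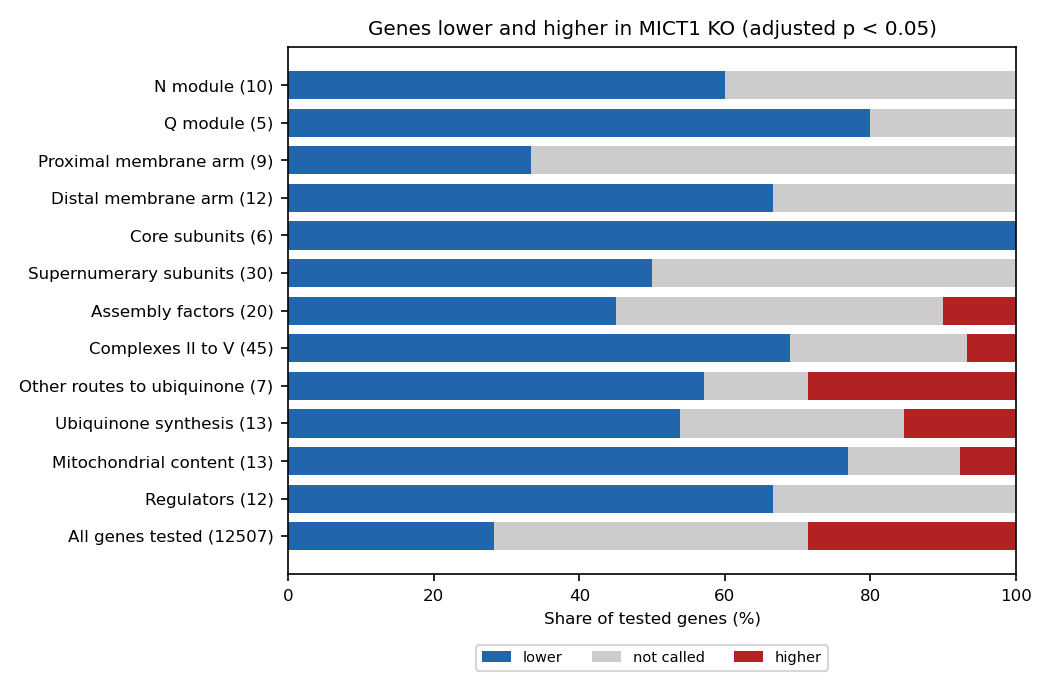
Share of tested genes lower (blue), higher (red) and not called (grey) in MICT1 KO in each list, with the number of genes tested in brackets. The bar of core subunits is all blue, the proximal membrane arm has 33.3% lower, and the bottom bar gives the shares over all 12507 genes tested.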

How the data were processed

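RNA-seq was available for 3 Scr and 3 MICT1 KO libraries, grouped by the sample labels. The authors deposited a normalized signal per gene, not counts. The submitters' processing notes name STAR, Partek and DESeq2 and the build GRCm38. The methods describe stranded libraries and comparison with Partek's GSA. The counting model and annotation are not given in the sources used here. From the values, the signal is an estimated read number divided by a size factor per library: 90.3% to 91.9% of the values under 20 in a library were whole reads within 0.05. No count model was used.

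The 12507 genes that reached 10 in 3 or more libraries were fitted with limma-trend (limma 3.58.1, R 4.3.3) on log2(value + 1), with Benjamini-Hochberg adjustment over all of them. The functions were tested on simulated data. RPKM used GENCODE vM21 exon lengths (GRCm38), found for 98.9% of rows. Of the 41 rows that the rule took, 1 is not reported here and enters no count or sum over the members. Members, lists and tests were chosen with earlier results of these data known. Per-library values are given for core subunits, the lowest and highest of each module, rows called higher or changed 1.5-fold, rows that overlap without a call, and the relatives. Of other lists, the 3 lowest and 3 highest called genes are named. Library values of Ndufab1 and Ndufb6, and Nrf1 and Esrra, were added after their values were seen. Alternatives were other scalings, pseudocounts, filters, priors and call rule, a replicate block and each library left out in turn. Counts over subunits of complex I proper, and without the 5 rows that lack whole reads, were added after seeing the data.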

Additional observations from a re-analysis of the deposited data

How the results depend on the processing

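Over the planned settings the number of the 40 rows called lower was 20 to 24, beside 23, except under 1 call rule. That rule was a 1.8-fold change with unadjusted p under 0.05, the fold and p limits in the study's methods, without their RPKM limit. It left 2 lower (Ndufb9 and Ndufa6) and 0 higher. The share of all genes tested that passed it is not given here. Leaving out 1 library gave 21 to 24 lower and 0 to 1 higher, beside 3114 to 3344 lower and 3269 to 3334 higher of all 12507 genes. The filter at 4 RPKM gave 22 lower, beside 2853 of the 8494 genes it kept. A constant prior variance gave 20 lower, beside 3140 of all 12507 genes. The 1 row called higher, Ndufs5-ps, was also lost under a constant prior variance (0 higher) and under the filter at 4 RPKM (0 higher), where it has no exon length. Without the 5 rows that lack whole reads 22 were lower and 0 higher, and among complex I proper 21 and 0. Of the 23 rows called lower, 19 kept the call in every setting that tested them other than that 1.8-fold rule (Ndufb4 was not tested under the 4 RPKM filter); the exceptions were Ndufa12, Ndufa7, Ndufb4 and Ndufb6, of which all but Ndufb4 lost it under a constant prior variance and Ndufb6 also under library total and upper quartile scaling. With the replicate block 23 were lower and 1 higher. The replicate numbers share only a number: correlations of deviations were -0.024 to 0.064 for the same number and -0.043 to 0.056 for others.

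Signs turned only in uncalled rows near 0. Upper quartile scaling gave 0.0090 for Ndufa3, 0.0372 for Ndufb7 and 0.0031 for Ndufs5; Ndufb7 was 0.0036 scaled by library total and 0.0041 by the trimmed mean of M values. With 1 library left out, log2 fold changes ran from -0.0392 to 0.114 for Ndufa1, -0.178 to 0.0062 for Ndufa11, -0.0831 to 0.0517 for Ndufa3, -0.0348 to 0.105 for Ndufb4c, -0.0533 to 0.0857 for Ndufb7 and -0.137 to 0.130 for Ndufs5. The summed level fell by 21.0% in the deposited values and by 18.9% per kilobase of exon.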
